A study of Homo sapiens with 32 samples.

Results

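The earliest transcriptional response of RH4 cells to dCBP and IHK-44 was measured 2 h after the compounds were added. RH4 is an established human alveolar rhabdomyosarcoma line, and the labels name no genetic modification. The response rests on 4 RNA-seq libraries (dCBP and IHK-44, each at 100 nM and 1000 nM) and on 2 control libraries of the same time, DMSO, the solvent, and NT, an abbreviation left unexplained in the labels. These were chosen by compound and time from the labels and make up 6 of the 20 RNA-seq libraries and of the 32 samples of the series. The series describes its compounds as CBP/p300 inhibitors or degraders, and the labels do not say which kind dCBP and IHK-44 are. The libraries of 6 h (the same compounds and doses, with a DMSO and an NT library of their own) were used to follow the genes called at 2 h, and the 2 h libraries of A485 and JQAD were used for comparison.

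CBP and p300, encoded by CREBBP and EP300, are paralogous acetyltransferases that transcription factors recruit to enhancers and promoters, where they acetylate histone tails and other proteins and serve as scaffolds for the transcription machinery. Alveolar rhabdomyosarcoma cells such as RH4 carry the fusion transcription factor PAX3-FOXO1, which acts through enhancers together with MYOD1, MYOG and MYCN in a network of factors that maintain each other's expression. Genes with short-lived messages can show a block of transcription within hours, whereas stable messages persist.

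Each condition had 1 library, so the 4 treated libraries were tested together against the 2 controls, and compounds and doses stood in for replicates. The spread therefore contains the differences between compounds and doses, and p-values measure only the spread between these libraries. Coding genes received 13466631 to 15180490 expected counts in the treated libraries and 16010791 to 16661051 in the controls. Reads outside the listed coding genes made up 8.2% to 9.61% of the reads in the 4 treated libraries, with a mean of 8.72% ± 0.61 (SD, n = 4), and 5.63% and 6.00% in the controls. The groups did not overlap, and the exact permutation test (two-sided) gave p = 0.133, the smallest that 4 against 2 libraries allow. The muscle lineage markers MYOD1, MYOG, DES, CHRNA1 and FGFR4 lay between 186 and 812 CPM (expected counts scaled to the coding total of the library) in all 6 libraries. Endothelial markers summed to 3.78 to 4.75 CPM in the controls and 3.90 to 4.68 CPM in the treated libraries, and 1 of the 8 was at 0 throughout. Epithelial markers summed to 2.12 to 2.70 CPM and 2.28 to 2.82 CPM, with 4 of 8 at 0, and blood cell markers to 0.56 to 0.78 CPM and 0.74 to 1.26 CPM, with 2 of 8 at 0. The 10 fibroblast markers, none of them at 0 throughout, summed to 2735 to 2834 CPM in the controls and 2635 to 2766 CPM in the treated libraries, with 2 of 7 tested (FAP and PDGFRA) called lower. In bulk RNA, fewer cells of a type and less RNA per cell cannot be told apart.

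The series' title ties CBP/p300 dependency to the density of CpG islands, so the promoters of some genes with large changes are shown first. The 250 bases before the start site are given for 3 falls and 3 rises. They are the largest among the genes named by rule that the RefSeq promoter table (build GRCh38.p14) holds. They run 5′ to 3′ on the gene's strand in lower case, with each CpG in capitals. The windows are chr14:53955051-53955300 (minus strand) for BMP4, chr4:123396545-123396794 (plus strand) for SPRY1, chr20:14337613-14337862 (minus strand) for FLRT3, chr5:138465229-138465478 (plus strand) for EGR1, chr2:69914859-69915108 (plus strand) for MXD1 and chr6:27831561-27831810 (minus strand) for H4C12. BMP4 has 3 listed start sites and SPRY1 has 2, and the first listed was used.
BMP4: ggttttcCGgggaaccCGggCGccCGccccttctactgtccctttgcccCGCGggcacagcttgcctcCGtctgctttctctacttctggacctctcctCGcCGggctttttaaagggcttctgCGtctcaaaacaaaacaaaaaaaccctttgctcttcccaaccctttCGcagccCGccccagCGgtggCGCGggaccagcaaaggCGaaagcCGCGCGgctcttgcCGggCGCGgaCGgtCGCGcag
SPRY1: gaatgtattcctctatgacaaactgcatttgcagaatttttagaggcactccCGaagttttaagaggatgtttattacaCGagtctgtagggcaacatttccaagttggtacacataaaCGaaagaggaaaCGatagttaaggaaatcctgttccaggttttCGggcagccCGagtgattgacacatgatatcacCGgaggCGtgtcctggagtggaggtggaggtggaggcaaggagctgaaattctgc
FLRT3: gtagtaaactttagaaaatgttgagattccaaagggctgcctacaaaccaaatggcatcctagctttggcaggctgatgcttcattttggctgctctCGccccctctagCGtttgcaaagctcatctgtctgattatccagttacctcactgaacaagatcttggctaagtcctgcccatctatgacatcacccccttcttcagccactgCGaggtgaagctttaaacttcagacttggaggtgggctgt
EGR1: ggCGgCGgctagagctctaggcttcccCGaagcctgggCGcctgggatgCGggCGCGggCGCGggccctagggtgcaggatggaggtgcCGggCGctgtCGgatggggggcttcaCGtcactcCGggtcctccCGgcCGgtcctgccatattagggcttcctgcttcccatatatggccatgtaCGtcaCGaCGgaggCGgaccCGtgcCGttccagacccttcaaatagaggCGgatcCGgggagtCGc
MXD1: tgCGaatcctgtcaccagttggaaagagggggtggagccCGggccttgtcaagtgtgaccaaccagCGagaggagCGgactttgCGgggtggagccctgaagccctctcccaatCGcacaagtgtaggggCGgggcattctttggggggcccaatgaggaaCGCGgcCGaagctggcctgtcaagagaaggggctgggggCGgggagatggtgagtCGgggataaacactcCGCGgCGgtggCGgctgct
H4C12: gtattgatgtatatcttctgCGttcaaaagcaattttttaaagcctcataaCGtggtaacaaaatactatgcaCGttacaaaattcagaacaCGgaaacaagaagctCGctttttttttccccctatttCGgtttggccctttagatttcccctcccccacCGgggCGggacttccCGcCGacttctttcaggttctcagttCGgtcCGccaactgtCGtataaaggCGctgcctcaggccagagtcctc
Among the falls, BMP4 had 25 CpG in 250 bases, SPRY1 had 8 and FLRT3 had 3. Among the rises, EGR1 had 25, MXD1 had 16 and H4C12 had 14. The motifs searched, on both strands, were those named with their shares in the account of all promoters. Of these, GGGCGG matched in BMP4, MXD1 and H4C12. TATAAA matched in H4C12. SPRY1, FLRT3 and EGR1 held no match. Over all tested genes with an entry, 67.2% of such windows held GGGCGG and 5.57% held TATAAA.

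The first comparison set the 4 treated libraries against the 2 controls. The data show a fall of MYC, MYCN, the BMP ligand BMP4, the ERK feedback inhibitor SPRY1 and the transcription factors of the muscle lineage by 2 h, beside a rise of EGR1, MXD1 and HEXIM1. With an adjusted p under 0.05 (edgeR quasi-likelihood fit, Benjamini-Hochberg), 1160 of 12771 genes were lower (9.08%) and 1055 were higher (8.26%). With a change of at least 2-fold as well, 239 were lower and 95 higher. Every treated library lay below both controls for 1896 of the tested genes (14.8%) and above both for 3363 (26.3%), on the deposited CPM scale. The balance of directions depends on the scaling: with library size scaling the split was 943 lower and 1473 higher. With limma on log2(CPM + 1) it was 927 and 1438, and with limma on log2(TPM + 1) it was 8187 and 128. On the TPM scale, which the authors set over all quantified rows and not the coding genes alone, the median gene moved by -0.36 (log2). Without the DMSO library 1050 genes were called, and without the NT library 989.

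**Figure D1:**
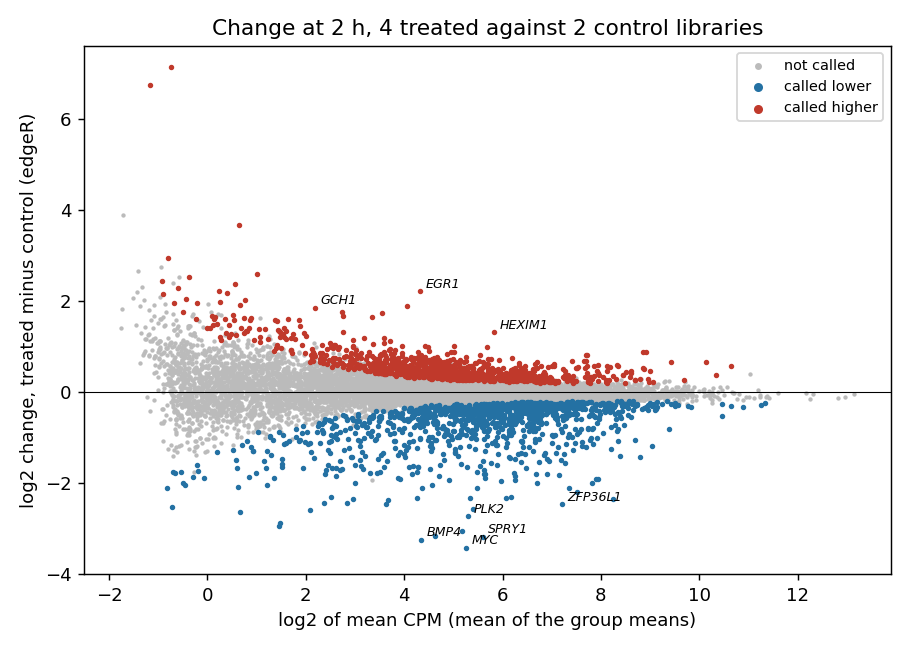
Fitted log2 change at 2 h (treated minus control, vertical axis) against the log2 of the mean CPM (horizontal axis), 1 point per tested gene. Blue points are the 1160 genes called lower, red points the 1055 called higher and grey points the rest. MYC lies at -3.42 and EGR1 at 2.21; the points above 5 are FSBP and TBC1D3H, at 0 CPM in both controls, whose fitted value depends on the prior count.

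MYC showed the largest fall of the genes that met the naming rule. MYC, a transcription factor of growth and metabolism, had 75.6 CPM in DMSO and 63.4 CPM in NT. dCBP left 6.95 CPM at 1000 nM and 8.91 CPM at 100 nM, and IHK-44 left 5.20 and 5.86 CPM at the same doses. All 4 treated libraries lay far below both controls, and the fitted fall was 10.7-fold (log2 change -3.42, SE 0.14, edgeR adjusted p = 1.63e-08). MYCN, its paralogue and a driver of this tumour type, had 67.1 and 61.6 CPM in the controls, 8.57 and 12.6 CPM with dCBP (1000 and 100 nM) and 5.05 and 5.93 CPM with IHK-44. MYCN fell 8.32-fold (log2 change -3.06, SE 0.21, edgeR adjusted p = 4.52e-07). MYCL fell by 1.12 on the log2 scale, from 72.2 and 77.4 CPM to between 31.4 and 39.3 CPM. Of the 12 genes of the MYC and MAX network, these 3 were lower (25%) and 2 were higher (16.7%), against 9.08% and 8.26% over all tested genes. The 2 higher genes are antagonists that compete with MYC for MAX. MXD1 rose 3.71-fold, from 5.88 and 7.88 CPM to between 22.3 and 33.0 CPM, and MXD4 rose by 0.34 (log2, SE 0.09, edgeR adjusted p = 0.0132). MAX itself, at 32.3 to 37.4 CPM in the 6 libraries, did not pass the test.

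The core transcription factors of fusion-positive rhabdomyosarcoma were lower in every tested member. This list, like the others, was written with earlier results of these data known, so its count is a description and not independent support. All 16 of 16 tested genes of that list of 18 were called lower, with a median log2 change of -1.03, where the median of all tested genes was 0.02. MYF5 and MYF6 were too low to test. SIX4, a homeobox factor of muscle progenitors, fell by 1.95 on the log2 scale, and SNAI2 fell by 1.94. MYOD1, the myogenic master factor, went from 590 and 508 CPM in DMSO and NT to 309, 291, 203 and 288 CPM (1000 and 100 nM dCBP, then 1000 and 100 nM IHK-44), a log2 change of -1.06 (SE 0.13, edgeR adjusted p = 7.11e-05). MYOG, which follows MYOD1 in differentiation, fell less, by 0.55 on the log2 scale, from 290 and 264 CPM to between 186 and 210 CPM. Reads of PAX3 and FOXO1 can come from the fusion message as well, and both genes fell by 0.61 and 0.94 on the log2 scale. SOX8, at 870 and 809 CPM in the controls, had 452 to 529 CPM in the treated libraries.

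Of 21 tested target genes of PAX3-FOXO1, 12 were lower (57.1%, against 9.08% over all tested genes) and none was higher (edgeR). Their median log2 change was -0.48. At an unadjusted p under 0.05 the counts were 15 lower and 0 higher, and with DESeq2 14 and 0. The largest falls were of transcription factors, MYCN, FOXF1, TFAP2B and MYOD1. Each of these is also a member of the list of core transcription factors, so the counts of both lists include them. TFAP2B had 78.3 and 81.1 CPM in the controls and 32.4 to 43.0 CPM in the treated libraries, and FOXF1 fell by 1.37 on the log2 scale. The signalling receptors differed among themselves. MET, the HGF receptor, fell by 0.54 (log2), whereas FGFR4 had 812 and 757 CPM in the controls and 727 to 772 CPM in the treated libraries (log2 change -0.10, SE 0.07, adjusted p = 0.333). The log2 changes of ALK (-0.07) and IGF1R (-0.09) did not pass the test either. At 6 h, in other libraries, FGFR4 fell by 0.53, ALK by 0.93 and IGF1R by 0.88 (log2), and each passed.

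**Figure D2:**
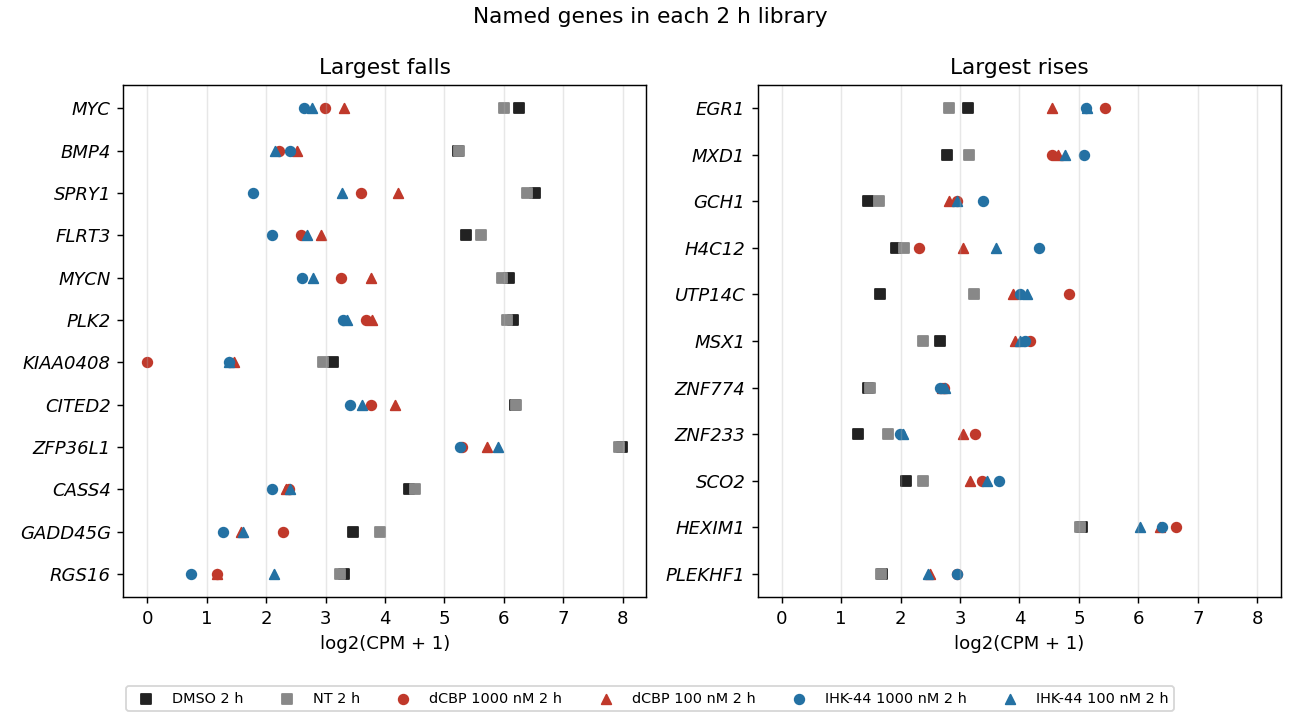
Level of the genes with the largest fall (left) and the largest rise (right) in each 2 h library, as log2(CPM + 1). Squares are controls, circles 1000 nM and triangles 100 nM; every treated library lies beyond both controls in these genes because the rule for naming them asked for it.

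ERK feedback genes are switched on by the MAP kinase pathway, and many of them dampen it. The list also holds the transcription factors ETV1, ETV4 and ETV5, so its count is not one of dampening genes alone. Of 14 tested, 11 were lower (78.6%, against 9.08% over all tested genes) and none was higher by edgeR. At an unadjusted p under 0.05, 1 was higher, and with DESeq2 0. The median log2 change of the list was -0.85. SPRY1 fell from 90.9 and 83.3 CPM to 11.1 and 17.6 CPM with 1000 and 100 nM dCBP and to 2.45 and 8.70 CPM with IHK-44 (log2 change -3.18, SE 0.33, edgeR adjusted p = 1.81e-05). SPRY2 fell by 2.32 on the log2 scale, PHLDA1 by 1.94, and the ERK phosphatase DUSP6 by 1.75. Of 25 tested immediate early genes, 10 were lower (40%) and 2 were higher (8%), against 9.08% and 8.26% over all tested genes. JUN, an AP-1 subunit, went from 510 and 492 CPM to 130 and 142 CPM with dCBP and 51.1 and 85.8 CPM with IHK-44 (log2 change -2.34, SE 0.25). KLF4 fell by 2.33, KLF10 by 1.79 and ATF3 by 1.49 (log2).

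EGR1, a zinc finger factor induced by growth signals, moved the other way and was the largest rise that met the naming rule. It had 7.74 and 6.06 CPM in DMSO and NT, 42.1 and 22.4 CPM with 1000 and 100 nM dCBP, and 33.9 and 34.1 CPM with IHK-44. All treated libraries lay above both controls, with a rise of 4.63-fold (log2 change 2.21, SE 0.22, edgeR adjusted p = 1.24e-05). FOSB, an AP-1 subunit, also rose, from 2.40 and 1.06 CPM to between 2.87 and 5.10 CPM (adjusted p = 0.0313). FOS, at 1.38 and 1.56 CPM in the controls and 2.04 to 5.10 CPM in the treated libraries, did not pass (adjusted p = 0.13).

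The BMP and TGF-beta response genes were mostly lower. BMP4 is a secreted ligand that signals through SMAD factors. It had 36.3 and 37.1 CPM in the controls and 3.62, 4.71, 4.31 and 3.42 CPM in the treated libraries, a fall of 9.47-fold (log2 change -3.24, SE 0.12, edgeR adjusted p = 9.93e-09). Of 18 tested genes of the list, 15 were lower (83.3%) and 1 was higher (5.56%), against 9.08% and 8.26% over all tested genes. The median log2 change of the list was -1.44. The lower genes include ligands (BMP4 and BMP2), inhibitors (SMAD7, SMAD6 and NOG) and targets (ID1, ID2 and ID3), of which BMP2, SMAD6, SMAD7, NOG, ID2 and ID3 were named after their values were seen. ID3, which blocks bHLH factors, went from 222 and 216 CPM to 96.0 and 94.6 CPM with dCBP and 15.7 and 51.1 CPM with IHK-44. The 1 higher gene was MSX1, a homeobox repressor, at 5.34 and 4.18 CPM in the controls and 14.1 to 17.1 CPM in the treated libraries (log2 change 1.66, SE 0.16).

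Other named falls were of diverse roles. PLK2, a stress-responsive kinase, fell 6.61-fold and FLRT3, a membrane adhesion protein, 8.94-fold. ZFP36L1, which destabilises messages, fell from 253 and 245 CPM to between 37.4 and 59.0 CPM. CITED2, a protein that binds CBP and p300, fell 5.94-fold, from 71.6 and 72.7 CPM to between 9.58 and 17 CPM. CASS4, a scaffold protein, fell 5.45-fold, GADD45G, a stress-response protein, 5.37-fold, and RGS16, a regulator of G protein signalling, 5.37-fold. KIAA0408 fell 6.05-fold and was low, at 7.75 and 6.77 CPM in the controls. It was at 0 with 1000 nM dCBP and lay between 1.59 and 1.74 CPM in the other treated libraries. Its adjusted p with DESeq2 was 0.166.

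The messages of the target proteins themselves, EP300 and CREBBP, did not pass the test. EP300 had 271 and 313 CPM in DMSO and NT, 333 and 349 CPM with dCBP and 270 and 284 CPM with IHK-44 (log2 change 0.03, SE 0.10, edgeR adjusted p = 0.868). CREBBP had 528 and 578 CPM in the controls and 518 to 590 CPM in the treated libraries (log2 change -0.03, SE 0.07, adjusted p = 0.811). Message levels do not report on protein. Of 12 tested acetyltransferase and CITED genes, CITED2 and KAT2B were lower (16.7%, against 9.08% over all tested genes). The other 10 were not called.

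Among the genes of transcription elongation, 4 of 18 tested were higher (22.2%) and 1 lower (5.56%), against 8.26% and 9.08% over all tested genes. HEXIM1, which holds the elongation kinase P-TEFb inactive, had 32.1 and 31.4 CPM in the controls, 98.1 and 81.4 CPM with dCBP and 83.2 and 64.2 CPM with IHK-44, a rise of 2.48-fold (log2 change 1.31, SE 0.13, edgeR adjusted p = 1.48e-05). MEPCE, which caps the 7SK RNA of the same inhibitory complex, rose by 0.54 (log2), BRD2, a bromodomain protein, by 0.35 and the P-TEFb cyclin CCNT2 by 0.34. ELL2, an elongation factor, fell by 0.59. CDK9, the kinase, had 39.9 to 45.7 CPM in all 6 libraries and did not pass the test. The median of the list was 0.08 and is below 0 on the TPM scale, at -0.33.

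Other named rises were of low expression in the controls. GCH1, an enzyme of tetrahydrobiopterin synthesis, had 1.74 and 2.12 CPM in the controls and 6.04 to 9.43 CPM in the treated libraries. ZNF774, a zinc finger gene, rose 3.00-fold. SCO2, which helps assemble cytochrome c oxidase, and PLEKHF1 rose 2.51-fold and 2.46-fold. UTP14C is uncertain: it has a near-identical copy, its controls differed (2.13 CPM in DMSO and 8.42 CPM in NT), and JQAD libraries held 16.4 and 17.5 CPM. With JQAD as the control its log2 change was 0.03 (adjusted p = 0.942). H4C12, a histone gene with near-identical paralogues, is uncertain too, and ZNF233 had 2.97 and 3.10 CPM with IHK-44 against 1.44 and 2.44 CPM in the controls. Its rise lost its call when either control or either dCBP library was left out (adjusted p from 0.0848 to 0.269), and that of H4C12 when either control was left out (0.105 and 0.133). UTP14C lost its call without DMSO (0.0576).

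In 3 large gene families, more members were called higher than lower. Over all tested genes, 8.26% were higher and 9.08% lower. Of 434 tested ZNF genes, a family in which many members are KRAB repressors encoded on chromosome 19, 172 were higher and 17 lower (median log2 change 0.34). Among those on chromosome 19, 110 of 223 were higher, and among the others 62 of 211, while of the other genes on chromosome 19, 59 of 706 were higher. Of 53 tested histone genes, 37 were higher and none lower by edgeR and by DESeq2 (1 lower at an unadjusted p under 0.05). H4C15 rose from a mean of 331 CPM to 628.6 CPM (chosen after its values were seen). Of 77 tested cytosolic ribosomal protein genes, 33 were higher and none lower by either tool or unadjusted, with a median of 0.21. On the TPM scale the medians of the ribosomal protein and ZNF lists were -0.25 and -0.08, so their direction flips there. Relative to the median of all genes on that scale they were 0.12 and 0.29 higher. Histone and ribosomal protein genes have many near-identical copies, and their counts are uncertain. Among the 6 libraries, those in which these families are higher are those with more reads outside the coding genes. The part of those reads in the result was not tested. Such reads made up 4.64% of the reads with 1000 nM A485 and 7.46% with 100 nM JQAD at 2 h. The families were not counted in those libraries. Without the 3 families, 1143 genes were lower and 813 higher.

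**Figure D3:**
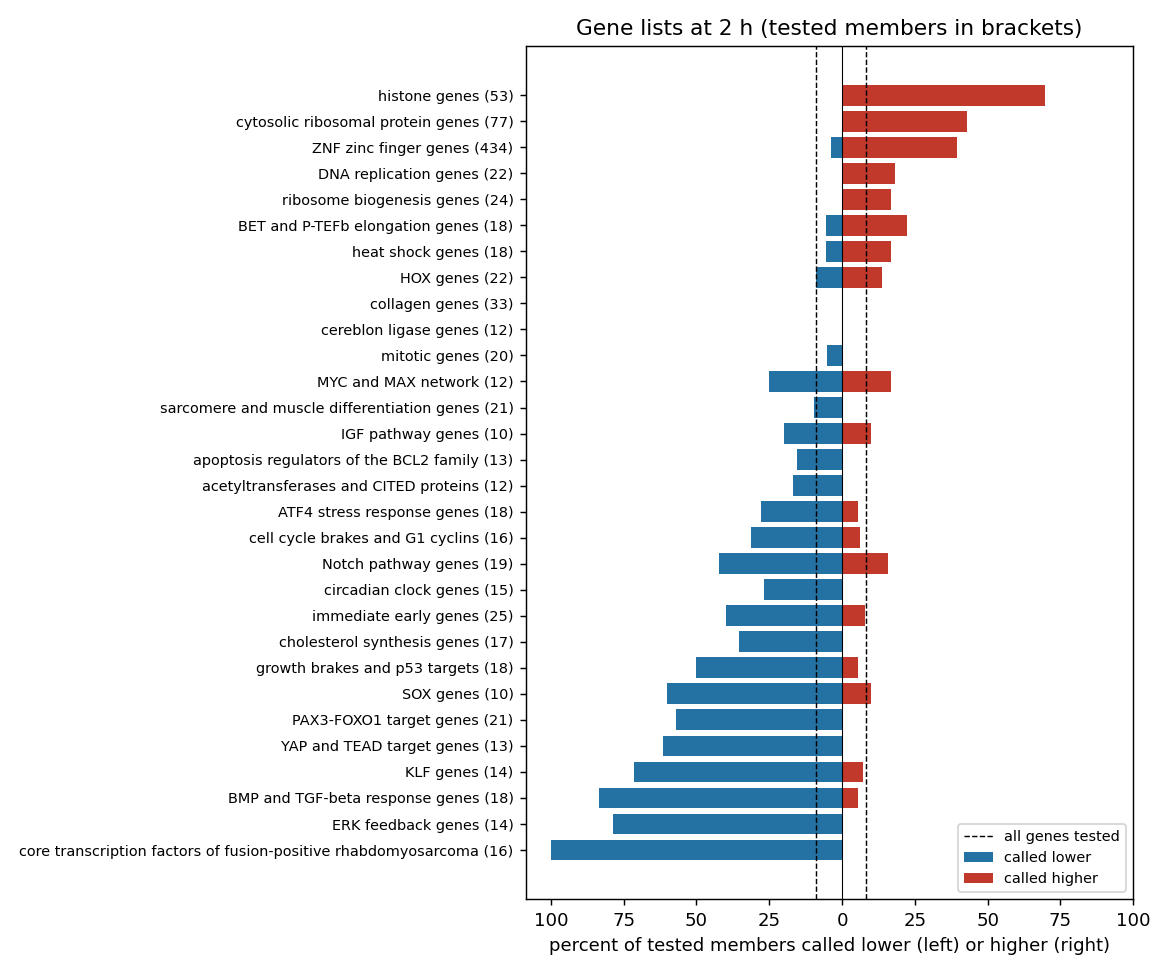
Percent of each list's tested members called lower (blue, left) or higher (red, right) at 2 h, for the lists with at least 10 tested members (number in brackets). Dashed lines are the shares over all tested genes, 9.08% lower and 8.26% higher. All 16 tested core transcription factors are lower and 37 of 53 histone genes are higher. The lists were written with earlier results of these data known.

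The remaining pathway lists ranged from many lower members to few, against 9.08% lower and 8.26% higher over all tested genes. KLF factors had 10 of 14 lower and 1 higher, targets of YAP and TEAD 8 of 13 lower, and growth brakes and p53 targets 9 of 18 lower and 1 higher. SOX factors had 6 of 10 lower and 1 higher, Notch pathway genes 8 of 19 lower and 3 higher, and cholesterol synthesis genes 6 of 17 lower. Cell cycle brakes and G1 cyclins had 5 of 16 lower and 1 higher, and ATF4 stress response genes 5 of 18 lower and 1 higher. Circadian clock genes had 4 of 15 lower, IGF pathway genes 2 of 10 lower and 1 higher, and the BCL2 family 2 of 13 lower. Mitotic genes had 1 of 20 lower and sarcomere genes 2 of 21 lower. DNA replication genes had 4 of 22 higher (18.2%), with a median of 0.10 that is -0.34 on the TPM scale. The ribosome biogenesis genes (median 0.10, and -0.34 on the TPM scale), often described as MYC targets, had 4 of 24 higher at 2 h. At 6 h, 16 of 24 were lower, against 21% of all genes tested at that time. For the 12 genes of the cereblon ligase, edgeR and DESeq2 called 0, and 0 passed at an unadjusted p under 0.05.

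Each library was also set against the mean of DMSO and NT, over 12187 genes and with no test. Ratios were taken of log2(CPM + 1), so the change of weakly expressed genes is understated. A change of 2-fold or more was reached with 1000 nM dCBP by 209 lower genes (1.71%) and 114 higher genes (0.935%). With 100 nM dCBP the numbers were 163 (1.34%) and 71 (0.583%). With 1000 nM IHK-44 they were 211 (1.73%) and 66 (0.542%), and with 100 nM IHK-44 178 (1.46%) and 29 (0.238%). NT against DMSO gave 2 lower (0.0164%) and 36 higher (0.295%). The 4 libraries thus had similar numbers of lower genes. The 29 higher genes of 100 nM IHK-44 and the 36 of NT have unlike references, the mean of both controls and DMSO alone. They cannot be ranked against each other. With DMSO alone as the reference the mean number of higher genes over the 4 libraries was 140, against 70 here.

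The compounds were compared over the same doses, without a term for dose. IHK-44 and dCBP differed in 3 of 12771 genes (0.0235%) by edgeR's quasi-likelihood test, all lower with IHK-44. An unadjusted p under 0.05, which many of 12771 genes can reach by chance, was reached by 1122 genes. DESeq2 called 34 lower and 5 higher. With a term for dose, which matches the libraries by dose, edgeR called 7 genes, all lower with IHK-44. ID1, an inhibitor of bHLH factors, had 49.2 and 34.0 CPM with dCBP and 16.9 and 20.5 CPM with IHK-44 (log2 difference -1.15, 95% interval -1.48 to -0.82, edgeR adjusted p = 0.0107). FOXF1, a forkhead factor, had 45.8 and 47.9 CPM with dCBP and 17.4 and 26.6 CPM with IHK-44 (log2 difference -1.08, interval -1.40 to -0.77). Without 1000 nM dCBP the adjusted p was 0.0594 for ID1 and 0.0879 for FOXF1, and without 100 nM dCBP that of FOXF1 was 0.137. In ID1 and FOXF1, both compounds lay below both controls, and the IHK-44 libraries did not overlap the dCBP libraries. At 6 h the dCBP and IHK-44 libraries overlapped for ID1, at 19.6 and 15.2 CPM and 19.2 and 16.7 CPM. The number of genes called depended on single libraries: it was 116 without DMSO, 92 without NT, 1 without 1000 nM dCBP, 21 without 1000 nM IHK-44 and 23 without 100 nM IHK-44.

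MYC, MYCN, SPRY1 and BMP4 did not pass the test between compounds. The log2 difference of IHK-44 minus dCBP was -0.52 for MYC (95% interval -0.91 to -0.12) and -0.94 for MYCN (-1.35 to -0.54), with edgeR adjusted p of 0.381 and 0.0991. For SPRY1 it was -1.33 (-2.04 to -0.61, adjusted p = 0.163). For BMP4 the log2 difference was -0.12, with an interval from -0.56 to 0.32, and for MSX1, a rise, it was -0.01, from -0.34 to 0.32. TCF7, a Wnt pathway factor, had 14.6 and 13.1 CPM with dCBP and 5.35 and 5.80 CPM with IHK-44, against 4.80 and 7.62 CPM in the controls. Its log2 difference of -1.31 did not pass (adjusted p = 0.0539), and passed with DESeq2 (0.000497) and without either control library (0.000506 and 0.00147). The genes leaning the other way, H4C12, ZIK1, BBS10 and ZNF813, had log2 differences of 0.45 to 1.40 and did not pass.

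**Figure D4:**
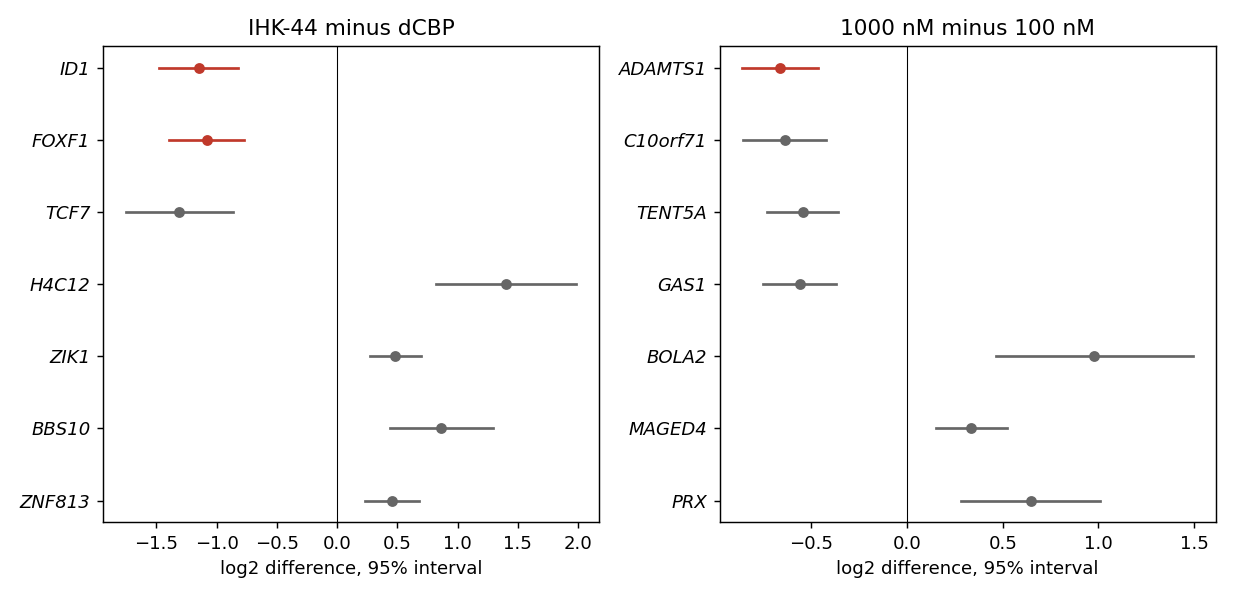
Log2 difference between IHK-44 and dCBP (left) and between 1000 nM and 100 nM (right) at 2 h for the genes with the smallest p in each direction, with 95% intervals. Red marks an adjusted p under 0.05 (ID1, FOXF1 and ADAMTS1); H2AC19 is left out because it is at 0 in 3 of the 4 treated libraries.

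The doses were compared within compound, in a fit with 2 residual degrees of freedom. The levels at 1000 nM and 100 nM differed in 2 of 12771 genes (0.0157%) by edgeR and in 17, all lower at 1000 nM, by DESeq2. An unadjusted p under 0.05, which many genes can reach by chance, was reached by 800. ADAMTS1, a secreted protease, had 272 and 257 CPM in the controls. It had 53.9 and 77.1 CPM with 1000 and 100 nM dCBP and 45.1 and 77.3 CPM with IHK-44. The log2 difference between doses was -0.66 (95% interval -0.86 to -0.46, edgeR adjusted p = 0.0452), and it lost its call without either IHK-44 library (0.0869 and 0.0626). SPRY1 had a larger log2 difference between doses, -1.05 (95% interval -1.49 to -0.61), that did not pass (edgeR adjusted p = 0.184). C10orf71, TENT5A and GAS1 had log2 differences of -0.64, -0.54 and -0.56 and did not pass (adjusted p = 0.0651 for each), but passed with DESeq2 and without either control library. H2AC19, the other gene called, has a near-identical copy and was listed at 0 in 3 of the 4 treated libraries, at 17.6 CPM in 1000 nM dCBP and at 15.5 and 16.4 CPM in the controls, so its counts are uncertain. BOLA2, MAGED4 and PRX leaned to higher levels at 1000 nM without passing. The number of genes called was between 26 and 49 with any 1 of the 6 libraries left out (43 without DMSO, 49 without NT, 32 and 31 without 1000 nM and 100 nM dCBP, 26 and 27 without 1000 nM and 100 nM IHK-44).

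For reference, the other compounds of the series were read at the same time and doses against the same control libraries. MYC had 5.76 CPM with 1000 nM A485, 37.4 CPM with 100 nM A485, and 72.9 and 74.0 CPM with 1000 and 100 nM JQAD. HEXIM1 had 76.4 and 53.7 CPM with A485 and 32.2 and 34.0 CPM with JQAD. At 1000 nM the A485 levels of both genes lay near those of dCBP and IHK-44, and at 100 nM they lay between those and the controls. The JQAD levels lay near the controls. At least 2-fold lower than the mean of DMSO and NT were 195 genes with 1000 nM A485 and 15 with 100 nM A485, and 41 and 8 were at least 2-fold higher. With 1000 and 100 nM JQAD, 5 and 4 were lower and 3 and 4 higher. The 2 doses of a compound were tested together, so that the spread holds the difference between them. In that test edgeR called 7 of 12676 tested genes for A485 and 1 of 12554 for JQAD, all lower. The gene called for JQAD was H2AC19, at 0 CPM in both JQAD libraries, whose counts are uncertain. Those called for A485 include H4C12, at 0 CPM in both A485 libraries, which is uncertain too. An unadjusted p under 0.05, which many genes can reach by chance, was reached by 2302 genes for A485 and by 348 for JQAD. The difference between these compounds and dCBP or IHK-44 was not tested.

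The genes called at 2 h were then followed in the 6 h libraries, which have controls of their own. At 6 h, 2690 of 12839 genes were lower (21%) and 2637 higher (20.5%). Of the 1153 genes lower at 2 h that were tested at 6 h, 1014 were lower again (87.9%) and 3 were higher, and their median log2 change went from -0.49 to -1.26. Of the 1052 genes higher at 2 h, 616 were higher again (58.6%) and 12 were lower, with medians of 0.46 at both times. MYC fell by 5.84 on the log2 scale at 6 h, to between 0.83 and 2.05 CPM, from 67.6 and 73.3 CPM. MYOG, which fell by 0.55 at 2 h, fell by 2.55 at 6 h. MXD1 went further up, with 37.8 to 54.7 CPM against 4.78 and 2.86 CPM (log2 change 3.40), and EGR1 stayed up by 1.94. H4C12, UTP14C, ZNF233, SCO2 and PLEKHF1 did not pass at 6 h. The 6 h calls depend on single libraries: 2738 genes were called without DMSO and 2581 without NT, of 5327.

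**Figure D5:**
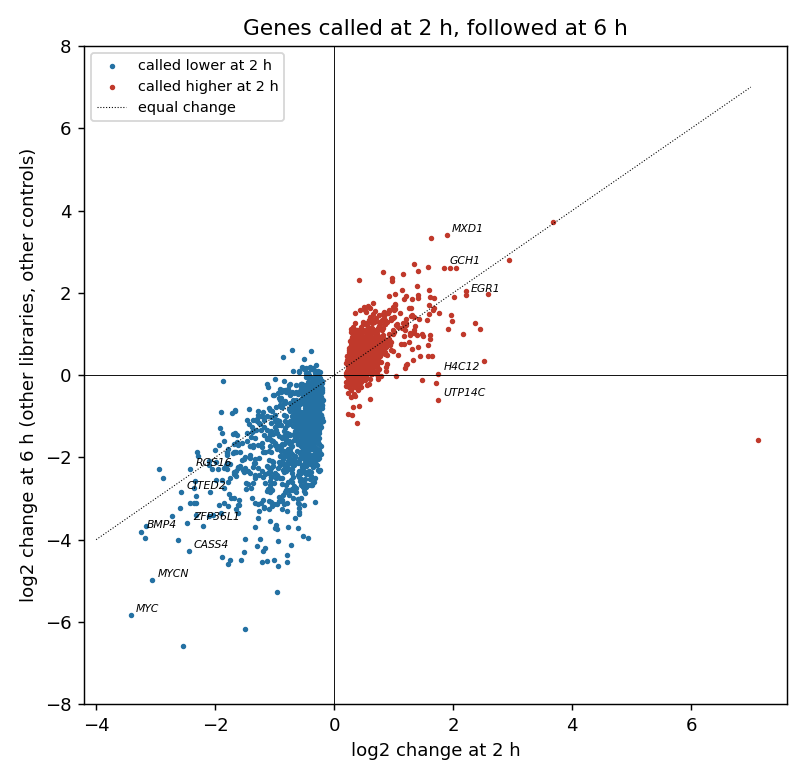
Log2 change at 6 h (vertical axis) against the log2 change at 2 h (horizontal axis) for the genes called at 2 h, 1 point per gene; the dotted line marks equal change. Genes lower at 2 h lie mostly below the line at 6 h, and genes higher at 2 h scatter around it.

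Of the genes called at both times, 15 reversed direction. NOP56, RRS1, POLR1B and NIP7, which act in ribosome biogenesis, were higher at 2 h and lower at 6 h (named after their values were seen). RRS1 had 33.9 and 31.0 CPM in the 2 h controls and 39.2 to 47.8 CPM in the treated libraries. At 6 h it had 33.9 and 33.9 CPM in the controls and 14.2 to 20.2 CPM in the treated libraries. Of the 12 genes that went from higher to lower, these 4 come from the ribosome biogenesis list. The 3 that went from lower to higher were TMEM169, HOXA3 and CLK1 (also named after their values were seen). In TMEM169 and HOXA3 the treated levels were higher at 6 h than at 2 h. In CLK1 it was mainly the controls that differed, with 50.1 and 51.8 CPM at 2 h and 23.95 and 22.6 CPM at 6 h. Its treated libraries had 38.9 to 43.9 CPM at 2 h and 29.95 to 45.4 CPM at 6 h.

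Properties that the choice of libraries did not use were then compared between the called genes. Genes lower at 2 h lie in longer transcription units: the median RefSeq span was 49.3 kb for the lower genes, 17.3 kb for the higher genes and 33.0 kb for those not called. The genes at least 2-fold lower were an exception, with a median of 14.8 kb, and MYC, CITED2 and GADD45G span 7.52, 2.84 and 1.54 kb. Of the higher genes, 16.1% lie on chromosome 19, against 3.19% of the lower genes and 6.85% of those not called. Of these 169 higher genes on chromosome 19, 110 are ZNF genes already counted above. Of the other tested genes on chromosome 19, 59 of 706 were higher (8.36%, against 8.26% over all tested genes). A promoter entry was found for 80.8% of the lower, 83.8% of the higher and 82.1% of the uncalled genes. A window was called CpG-rich when its 300 bases (250 before to 50 after the start) held at least 50% G+C and a CpG observed over expected of at least 0.6. It was CpG-rich in 72.5% of the lower genes (Wilson 95% interval 69.5 to 75.2, counting error only), 86.1% of the higher genes (83.7 to 88.2) and 80.0% of those not called (79.2 to 80.9). TATAAA matched in 10.7% (8.85 to 12.8), 7.47% (5.91 to 9.39) and 5.13% (4.69 to 5.62) of them. TGACGTCA, the cyclic AMP response element, matched in 2.77%, 4.19% and 3.22%, TGANTCA in 3.95%, 3.05% and 4.34%, CACGTG in 10.4%, 9.05% and 10.1%, and GGGCGG in 68.6%, 69.6% and 70.1%. For all 5 motifs the Wilson intervals of the lower and higher genes overlapped, which is not a test of a difference. For TATAAA the intervals of the lower and of the higher genes both lay above that of the uncalled genes. Genes are not independent replicates, and a match is a string of letters only.

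Genes were then split into tertiles of mean CPM, at 16.2 and 59.9 CPM. In the lowest tertile, 4.17% of the 2253 genes with a CpG-rich window and 6.96% of the 1092 others were lower. In the middle tertile the shares were 7.61% and 16.3%, and in the highest tertile 11.4% and 19.5%. Genes with a CpG-rich window were more often higher in the lowest tertile (8.92% against 3.30%) and the middle tertile (12.7% against 9.19%). In the highest tertile the order was the opposite (5.67% against 7.82%). These shares are a description and were not tested. For the genes at least 2-fold lower only 75.3% have an entry, so the check is void for them.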

How the data were processed

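RNA was measured in RH4 cells by RNA-seq of total RNA, per the labels. Reads were aligned with STAR 2.5.3a to hg38 and quantified with RSEM 1.3.3, per the submitters' processing notes, and strandedness is not given in the sources used here. Each file deposited by the authors lists 18980 coding genes with expected counts (estimated reads), TPM, FPKM and CPM values. The deposited CPM is relative to the coding total of a library, and the deposited TPM and FPKM were scaled over all rows the authors quantified. The total of reads was recovered from counts and FPKM in genes with an FPKM over 50.

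After rounding, the expected counts entered edgeR 4.0.16 (R 4.3.3; TMM, filterByExpr, quasi-likelihood test), with Benjamini-Hochberg adjusted p under 0.05 called, over all tested genes. The 2 h and 6 h fits had 4 residual degrees of freedom each, the compound fit 3 and the dose fit 2. DESeq2 1.42.0, limma 3.58.1, other scalings and controls, no filter and leaving out each library were alternatives. The fits were tested on simulated data. Named genes were the members of 7 lists and, among genes with an adjusted p under 0.05, all 4 treated libraries beyond both controls and at least 5 CPM in the higher group, the 12 largest falls and 12 largest rises. For compound and dose they were the 4 smallest p in each direction. A list has no test, only counts and a median. Gene spans, chromosomes and promoters came from RefSeq (GRCh38.p14), matched by symbol or by a unique synonym. The members and lists were chosen with earlier results of these data known. Depth was 13466631 to 16661051 coding counts per 2 h library, so a gene at 1 CPM rests on few reads. The other 2 h and 6 h libraries of A485 and JQAD were used only where named, and the ChIP-seq and ChRO-seq samples were not analysed here. Some genes that the rule names are not reported here.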

Additional observations from a re-analysis of the deposited data

Results flagged for a closer look

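The compounds differed at 2 h, by an edgeR test of the difference itself, in FOXF1 (log2 difference IHK-44 minus dCBP -1.08) and ID1 (-1.15). The doses differed in ADAMTS1 (log2 difference 1000 nM minus 100 nM -0.66) and in H2AC19 (9.92), a gene listed at 0 in 3 of the 4 treated libraries, whose fitted value depends on the prior count. Without either dCBP library the H2AC19 difference was 0.

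Reads assigned outside the coding genes, which the gene comparisons do not use, made up a mean of 8.72% of all reads in the 4 treated libraries and lay above both controls in each. Among the 24 genes named by the rule for falls and rises, KIAA0408 with 1000 nM dCBP (0 CPM) lay far from the other treated libraries. Chance gives about 1 such gap in 20 groups.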

How the results depend on the processing

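The 24 genes named by the rule for falls and rises gave 456 values under 19 alternatives. Of these values, 435 kept direction and call, 21 lost the call and 0 reversed. In 20 genes both held throughout, and the exceptions were H4C12, KIAA0408, UTP14C and ZNF233. These genes were chosen for their call and large change in the main fit, so their stability does not speak for the other called genes. The count of genes changed at 2 h (2215) was 8315 on log2(TPM + 1), 970 with DMSO alone, 1036 with NT alone and 334 at 2-fold, and 989 to 2298 with a library left out. The compound difference (3 genes) gave 38 without a filter, 39 with DESeq2, 7 with a dose term and 1 to 116 with a library left out. The dose difference (2 genes) gave 8 with RLE scaling, 9 without a filter, 17 with DESeq2, 0 with limma (883 at an unadjusted p under 0.05) and 26 to 49 with a library left out. The 6 h count (5327) ran from 2581 to 7465 with a library left out (7465 without 100 nM dCBP), and its split of 2690 lower and 2637 higher became 1993 and 4547 with library size scaling. Per library, the mean of 190.2 genes lower became 478 at 1.5-fold. The mean of 70 higher became 171 with a pseudocount of 0.1, 140 against DMSO alone, 538 at 1.5-fold and 30.5 at 5 CPM or more. With the 250 bases before the start alone, CpG-rich shares were 81.7% of higher genes and 76.8% of all genes tested, and over all listed windows 78.4% of all, an alternative chosen after seeing the data, as were leaving out the 3 gene families and the list medians on other scales. Where no cause shows in how an alternative is built, the cause was not tested. No paired analysis by replicate was possible because the labels give no replicate numbers; libraries were matched by dose only through the dose term. With 1 library per condition, changes of genes near 1 CPM were not detectable at this depth unless large.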
